A study of Mus musculus with 6 samples.

Results

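Gpr83, Izumo1r, Nrp1, Klrg1, Cd83, Cd5 and Cd200 encode cell surface proteins by which thymus-derived, effector and activated regulatory T cells (Tregs) are recognised. The 7 genes were taken by name from the 47643 reference genes of the deposited tables, and all 7 were among the 12186 genes with at least 1 FPKM (a fragment count scaled to transcript length and to the fragments of the library) in 3 or more libraries. Their transcripts were measured by RNA sequencing in natural Tregs (nTregs) that had been kept for 6 h with a 100 nM EP4 agonist (3 libraries), or with DMSO vehicle (3 libraries). EP4 is a prostaglandin E2 receptor. All cells came from spleens of C57BL/6 mice of the Foxp3-DTR/EGFP genotype, in which the Foxp3 locus also drives the diphtheria toxin receptor and a green fluorescent protein. Before treatment they were activated for 2 days with plate-bound antibody to CD3, soluble antibody to CD28 and IL-2, and after it they were sorted on green fluorescence. The age of the mice is not in the labels. The labels do not say whether the 3 libraries of a group come from separate mice or cultures, so p-values measure the spread between libraries, which may be technical.

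Tregs restrain immune responses and depend on the transcription factor Foxp3. In mice, Nrp1 is used with the transcription factor Helios to mark Tregs made in the thymus, and Gpr83 and Izumo1r are transcripts enriched in Tregs over other CD4 T cells. Klrg1 marks a terminally differentiated effector state, whereas Cd5, Cd83 and Cd200 respond to antigen receptor signals in T cells. EP4 couples to the stimulatory G protein and raises cyclic AMP, which activates the transcription factor CREB.

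The libraries rest on 4.32 to 4.98 gigabases of aligned sequence with the agonist and 4.49 to 5.65 gigabases with vehicle. The summed level of 5 T cell markers was 960.1 to 1095 FPKM with the agonist and 973 to 1113 FPKM with vehicle, and that of 4 Treg markers was 1293 to 1515 FPKM with the agonist and 1210.2 to 1294 FPKM with vehicle. Of these Treg markers, Foxp3 averaged 134.7 FPKM with the agonist and 131.8 FPKM with vehicle, and Il2ra 850 and 848 FPKM. Ikzf2 averaged 36.8 FPKM with the agonist and 29.7 FPKM with vehicle, and Ctla4 380 and 242 FPKM. All 9 markers of dendritic cells and macrophages were below 1 FPKM in every library, with Siglech at 0. Of 6 B cell markers, Ms4a1, Pax5, Cr2 and Fcer2a were below 1 FPKM in every library, and the list summed to 3.69 to 5.82 FPKM with the agonist and 5.59 to 5.92 FPKM with vehicle, most of it Cd79b. Of 5 NK cell markers 4 were below 1 FPKM in every library, with Klra8 at 0, and the sum was 0.170 to 0.699 FPKM with the agonist and 0.388 to 1.43 FPKM with vehicle. Cd8a was below 1 FPKM in every library, while Cd8b1 stood at 4.03 to 6.20 FPKM with the agonist and 3.45 to 5.36 FPKM with vehicle. The erythroid list summed to 0.637 to 2.66 FPKM with the agonist and 1.56 to 5.82 FPKM with vehicle. Of the stromal and endothelial markers Pecam1 alone reached 1 FPKM, and the list summed to 15.9 to 19.4 FPKM with the agonist and 14.6 to 18.4 FPKM with vehicle.

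Transcripts of Gpr83 and Izumo1r, which lie next to each other on chromosome 9, were higher with the EP4 agonist in every library, while Nrp1 and Cd5 differed little between the groups. Klrg1 and Cd83 were higher with the agonist within each pair of libraries that carry the same replicate number, but the differences between the numbers were larger than those between the groups. In limma's test without the replicate number as a block, 0 of the 7 genes passed an adjusted p of 0.05, where 0.394% of all tested genes did, and 2 of the 7 (Gpr83 and Izumo1r) had an unadjusted p under 0.05, where 1701 of the 12186 tested genes did. With the block, Gpr83, Izumo1r and Cd83 rose and 0 of the 7 fell, where 10.5% of all tested genes passed in either direction and 4.09% rose. The blocked calls depend on the libraries: 1279 genes were called with the block by limma over all 6 libraries, and 241, 0 and 1 without replicate numbers 1, 2 and 3, with 3457, 2557 and 2431 genes at unadjusted p under 0.05. Every call from this blocked fit was thus lost without number 2, and at most 1 was kept without number 3. The calls of Gpr83, Izumo1r and Cd83 were lost in both cases. Blocked fits on other measures or with another normalization were not repeated without a number. With quantile normalization beside the block, Gpr83 and Izumo1r rose, and Cd83 had an adjusted p of 0.0525 (limma). The median log2 fold change of log2(FPKM + 1), agonist over vehicle, was 0.38 over the 7 genes and -0.03 over all tested genes.

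**Figure D1:**
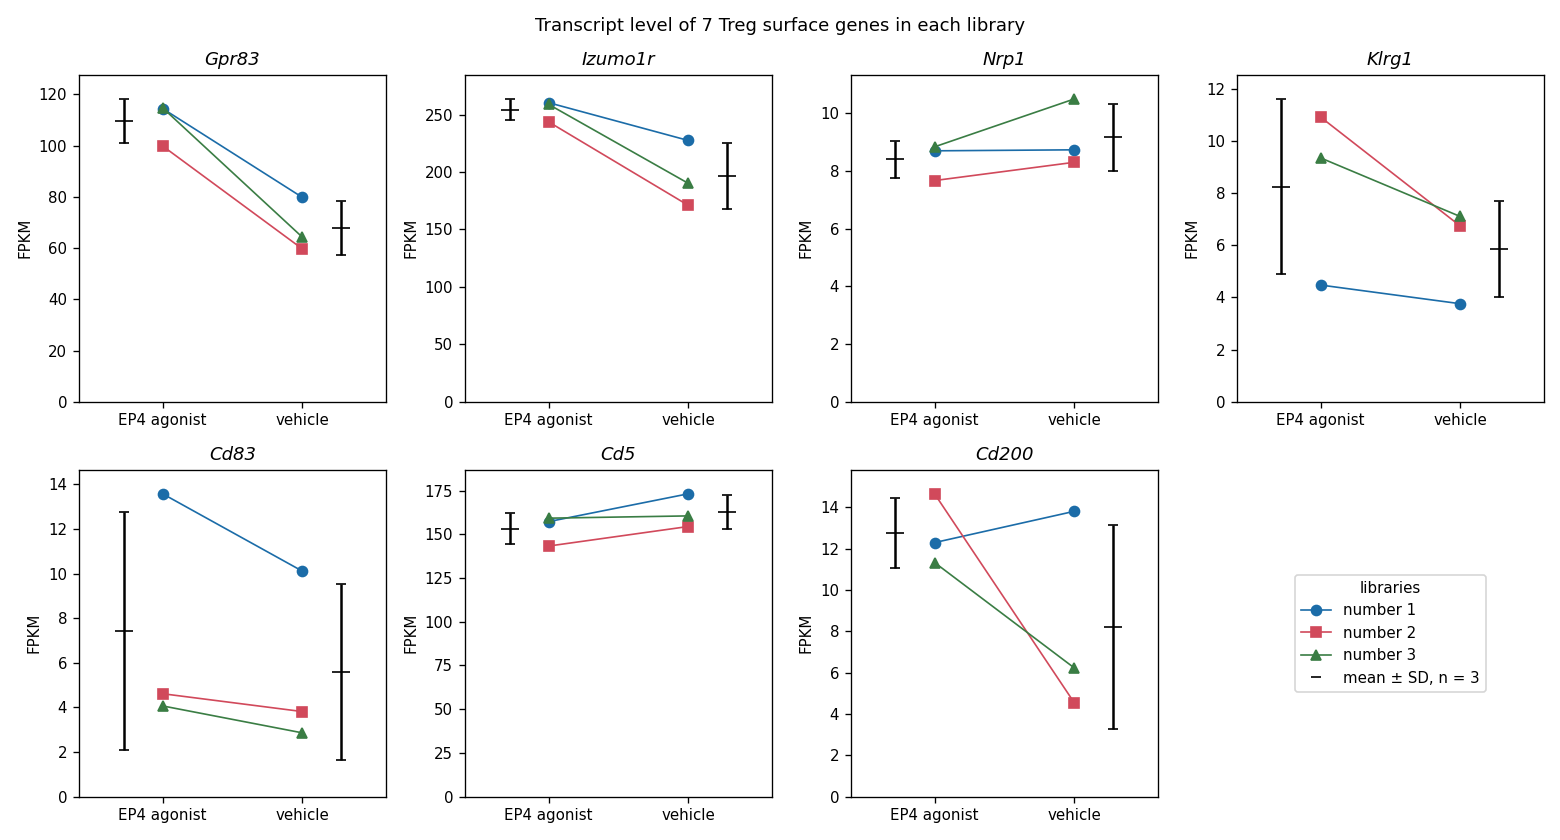
FPKM (linear axis from 0) of each of the 7 genes in the 3 EP4 agonist and the 3 vehicle libraries. Lines join libraries with the same replicate number, and black marks give the mean and SD (n = 3). The agonist and vehicle points are apart for Gpr83 and Izumo1r, and number 1 stands above the other two for Cd83 and below them for Klrg1 in both groups.

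**Figure D2:**
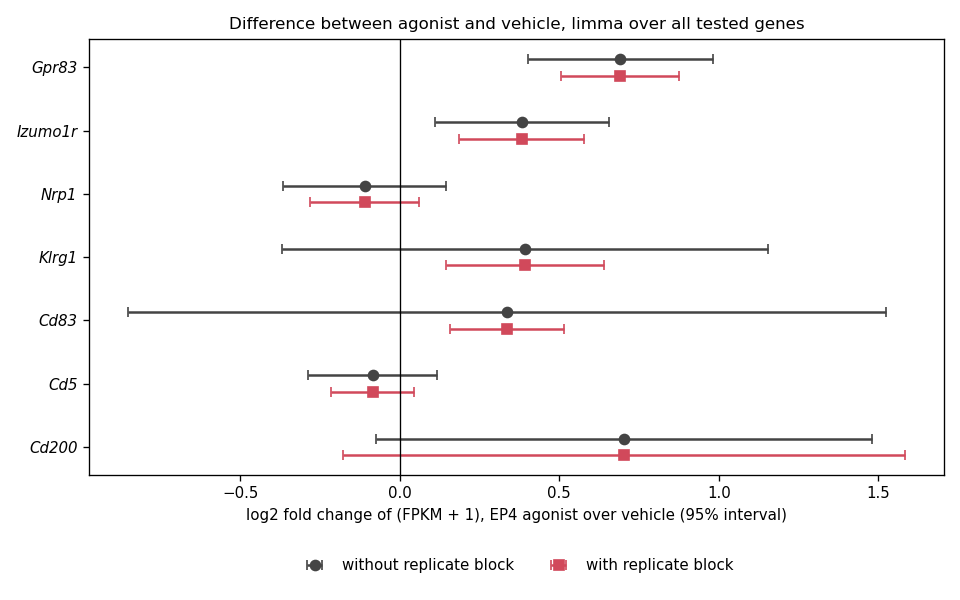
Log2 fold change of FPKM + 1, agonist over vehicle, with the 95% interval of limma's moderated test, fitted over all tested genes without the replicate block (grey circles) and with it (red squares). Without the block the intervals of Gpr83 and Izumo1r alone lie above 0. With the block those of Klrg1 and Cd83 do too.

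Gpr83 encodes a G protein-coupled receptor. Its gene (ENSMUSG00000031932.14, protein-coding) spans bases 14860210 to 14870789 of chromosome 9 on the plus strand (mm10). It had 115, 99.9 and 115 FPKM in agonist libraries 1, 2 and 3, against 79.9, 59.7 and 64.3 FPKM in vehicle libraries 1, 2 and 3. Every agonist value lay above every vehicle value, which was the case for 7.27% of all tested genes. The means were 109.7 ± 8.52 FPKM with the agonist and 68.0 ± 10.6 FPKM with vehicle (SD, n = 3 each), a ratio of 1.61. The log2 fold change was 0.69 (SE 0.12; limma, adjusted p = 0.0888), and with the block the SE was 0.07 and the adjusted p was 0.0180. The agonist value exceeded the vehicle value of the same number 1.43, 1.67 and 1.78 times for numbers 1, 2 and 3. Without vehicle library 1, which had the highest vehicle value, the adjusted p was 0.0230 with no block, and without each of the other 5 libraries it was 0.161 to 0.332. The blocked adjusted p was 0.0365, 0.104 and 0.0940 without numbers 1, 2 and 3.

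Izumo1r encodes folate receptor 4, a surface protein held by a lipid anchor, also known as Juno, the receptor for sperm on the egg. Its gene (ENSMUSG00000031933.17, protein-coding) spans bases 14885814 to 14903949 of chromosome 9 on the minus strand. The 3′ ends of Gpr83 and Izumo1r thus face each other across 15024 bases, in which GENCODE M21 places 0 whole genes. Izumo1r had 260.4, 244 and 259 FPKM in agonist libraries 1, 2 and 3, against 228, 171 and 190.2 FPKM in vehicle libraries 1, 2 and 3. Here too the groups did not overlap, and vehicle library 1 came closest to the agonist libraries. The means were 254 ± 9.25 FPKM with the agonist and 196 ± 28.7 FPKM with vehicle, a ratio of 1.30. The log2 fold change was 0.38 (SE 0.12; limma, adjusted p = 0.228; blocked, 0.0453). The blocked adjusted p was 0.0470, 0.181 and 0.193 without numbers 1, 2 and 3. Within numbers 1, 2 and 3 the agonist value was 1.14, 1.42 and 1.36 times the vehicle value. The smallest ratio of both genes was thus in number 1.

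The windows from 250 bases before to 50 bases after the annotated start are shown for Gpr83, Izumo1r and Cd200, whose agonist and vehicle libraries did not overlap by FPKM or, for Cd200, by the coverage described further on. They are RefSeq sequences of GRCm38.p6 on the strand of the gene, at chr9:14859960-14860259 (Gpr83, plus strand), chr9:14903718-14904017 (Izumo1r, minus strand) and chr16:45409004-45409303 (Cd200, minus strand). The annotated start is that of RefSeq, which for Gpr83 and Cd200 is also the start of the gene span given here. For Izumo1r it lies inside the span, which starts at base 14903949 on the minus strand. Sequence before that base was thus searched only up to base 14904017. Capitals mark matches to the searched motifs.
Gpr83: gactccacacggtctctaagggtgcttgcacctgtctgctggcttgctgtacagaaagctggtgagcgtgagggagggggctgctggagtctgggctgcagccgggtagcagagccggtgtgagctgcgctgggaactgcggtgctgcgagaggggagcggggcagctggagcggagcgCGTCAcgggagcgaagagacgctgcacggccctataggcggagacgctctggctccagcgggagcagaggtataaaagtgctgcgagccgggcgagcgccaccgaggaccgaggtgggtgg
Izumo1r: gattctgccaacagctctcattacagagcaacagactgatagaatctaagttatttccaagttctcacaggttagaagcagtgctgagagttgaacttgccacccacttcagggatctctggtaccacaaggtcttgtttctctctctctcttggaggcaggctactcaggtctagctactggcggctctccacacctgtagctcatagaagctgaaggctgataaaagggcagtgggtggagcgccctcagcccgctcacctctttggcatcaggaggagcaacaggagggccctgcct
Cd200: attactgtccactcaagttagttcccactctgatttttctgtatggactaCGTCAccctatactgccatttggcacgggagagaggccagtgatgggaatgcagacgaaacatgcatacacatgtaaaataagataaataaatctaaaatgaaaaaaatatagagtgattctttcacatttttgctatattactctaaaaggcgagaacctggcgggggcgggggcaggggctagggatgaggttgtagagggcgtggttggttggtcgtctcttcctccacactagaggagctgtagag
RefSeq windows were found for 5 of the 7 genes, these 3 and those of Nrp1 and Cd5. Both strands were searched for the full cyclic AMP response element (TGACGTCA), its core (TGACG, which also lies within the full element), the NR4A site (AAAGGTCA), the AP-1 site (TGANTCA) and a kappa B decamer. The core occurred once in Gpr83, starting 71 bases before the annotated start, and once in Cd200, starting 200 bases before it, in both cases on the strand opposite to the gene, so that it reads CGTCA above. The windows of Izumo1r, Nrp1 and Cd5 held none of the 5 motifs, and no other match was found in those of Gpr83 and Cd200. Of 32544 distinct promoter windows of the same length, 20.9% held the core, 1.80% the full element, 1.52% the NR4A site, 7.79% the AP-1 site and 0.157% the kappa B decamer. A match is a run of letters and not a measured site.

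Nrp1 encodes neuropilin-1, a co-receptor for semaphorins and for vascular endothelial growth factor. Its gene (ENSMUSG00000025810.8, protein-coding) spans bases 128359073 to 128505462 of chromosome 8 on the plus strand and holds the microRNA gene Mir1903 on the same strand, so that part of its signal may be counted to that gene. Nrp1 had 8.70, 7.67 and 8.84 FPKM in agonist libraries 1, 2 and 3, against 8.74, 8.30 and 10.5 FPKM in vehicle libraries 1, 2 and 3. The groups overlapped, and number 1 differed by less than the spread within either group. The means were 8.40 ± 0.639 FPKM with the agonist and 9.18 ± 1.16 FPKM with vehicle. The log2 fold change was -0.11 with a 95% interval of -0.37 to 0.14 (limma, adjusted p = 0.697; blocked, 0.330).

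Klrg1 encodes an inhibitory receptor that binds cadherins and is carried by effector Tregs, as well as by NK cells and CD8 T cells. Its gene (ENSMUSG00000030114.8, protein-coding) spans bases 122270596 to 122282882 of chromosome 6 on the minus strand. Klrg1 had 4.48, 10.9 and 9.35 FPKM in agonist libraries 1, 2 and 3, against 3.76, 6.75 and 7.11 FPKM in vehicle libraries 1, 2 and 3. The lowest library of each group was number 1, at 0.442 times the mean of the other two with the agonist and 0.543 times with vehicle. The groups overlapped because of agonist library 1. The means were 8.25 ± 3.36 FPKM with the agonist and 5.87 ± 1.84 FPKM with vehicle, a log2 fold change of 0.39 with a 95% interval of -0.37 to 1.15 (limma, adjusted p = 0.633). With the block the interval was 0.14 to 0.64 and the adjusted p was 0.0691. Without agonist library 1 the log2 fold change was 0.73, without vehicle library 1 it was 0.15 and without agonist library 2 it was 0.17, with adjusted p = 0.370, 0.827 and 0.859. Of the markers of other cells that carry Klrg1, the NK cell gene Eomes reached 1.15 FPKM in vehicle library 2, and the other 4 NK cell genes were below 1 FPKM in every library. Of the CD8 T cell markers, Cd8a was below 1 FPKM, while Cd8b1 had 6.20, 4.03 and 4.82 FPKM in agonist libraries 1, 2 and 3 and 5.36, 3.45 and 4.77 FPKM in vehicle libraries 1, 2 and 3. Cd8b1 was thus above Klrg1 in number 1 of both groups and below it in numbers 2 and 3. The part of such cells in the Klrg1 values was not tested. In bulk RNA a change in the number of Klrg1-positive cells and a change in transcript per cell cannot be told apart.

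Cd83 encodes an immunoglobulin-like protein that appears on activated T cells, B cells and maturing dendritic cells. Its gene (ENSMUSG00000015396.3, protein-coding) spans bases 43785107 to 43803130 of chromosome 13 on the plus strand. Cd83 had 13.6, 4.61 and 4.06 FPKM in agonist libraries 1, 2 and 3, against 10.1, 3.81 and 2.86 FPKM in vehicle libraries 1, 2 and 3. Number 1 was the high library of both groups, 3.13 times the mean of the other two with the agonist and 3.03 times with vehicle, and the groups overlapped. The agonist value was 1.34, 1.21 and 1.42 times the vehicle value of numbers 1, 2 and 3. The means were 7.42 ± 5.34 FPKM with the agonist and 5.59 ± 3.94 FPKM with vehicle. The log2 fold change was 0.34 (SE 0.51; limma, adjusted p = 0.818), and with the block the SE was 0.07 and the adjusted p was 0.0487, or 0.127 to 0.187 without any 1 replicate number. Without agonist library 1 and with no block, the log2 fold change was -0.15 (adjusted p = 0.940), without vehicle library 1 it was 0.79 (0.356), without vehicle library 2 0.19 (0.955) and without vehicle library 3 0.03 (0.993). The B cell list stood at 4.74, 5.82 and 3.69 FPKM in agonist libraries 1, 2 and 3 and at 5.92, 5.59 and 5.60 FPKM in vehicle libraries 1, 2 and 3, and the dendritic cell and macrophage list at 1.02, 0.482 and 0.284 FPKM with the agonist and 0.631, 0.845 and 0.203 FPKM with vehicle.

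Cd5 encodes an inhibitory receptor of the scavenger receptor family whose surface level on T cells follows the strength of antigen receptor signals. Its gene (ENSMUSG00000024669.7, protein-coding) spans bases 10718143 to 10738974 of chromosome 19 on the minus strand. Cd5 had 157, 143 and 159 FPKM in agonist libraries 1, 2 and 3, against 173, 155 and 161 FPKM in vehicle libraries 1, 2 and 3. The groups overlapped. The means were 153 ± 8.70 FPKM with the agonist and 163 ± 9.55 FPKM with vehicle, a log2 fold change of -0.09 with a 95% interval of -0.29 to 0.12 (limma, adjusted p = 0.702; blocked, 0.319). Of the 7 genes its profile varied least over the 6 libraries, with a root mean square of 0.08 for centred log2(FPKM + 1).

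Cd200 encodes a ligand for the inhibitory receptor Cd200r1, and is found on activated T cells and B cells. Its gene (ENSMUSG00000022661.14, protein-coding) spans bases 45382135 to 45409053 of chromosome 16 on the minus strand, with 11 transcripts in GENCODE M21, the most of the 7 genes. Cd200 had 12.3, 14.7 and 11.3 FPKM in agonist libraries 1, 2 and 3, against 13.8, 4.55 and 6.23 FPKM in vehicle libraries 1, 2 and 3. Vehicle library 1 stood within the agonist range, and the other two vehicle libraries lay below it. The means were 12.8 ± 1.71 FPKM with the agonist and 8.19 ± 4.93 FPKM with vehicle, a log2 fold change of 0.70 with a 95% interval of -0.07 to 1.48 (limma, adjusted p = 0.400; blocked, 0.243). Without vehicle library 1 the log2 fold change was 1.11 and the adjusted p was 0.0343 with no block, against 0.544 to 0.774 without each of the other 5 libraries, and without replicate number 2 it was 0.31 with the block (adjusted p = 0.542).

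The overlap between the groups of Cd200 was not seen in coverage or in the FPKM of assembled loci. Coverage, the mean number of reads over each base, divided by the gigabases aligned, was 9.25, 7.73 and 7.49 in agonist libraries 1, 2 and 3, against 6.15, 3.74 and 4.23 in vehicle libraries 1, 2 and 3. The locus assembled on the strand of Cd200 from each library's own reads had 22.6, 17.4 and 17.1 FPKM with the agonist, against 16.0, 9.23 and 9.89 FPKM with vehicle. By both measures every agonist library was above every vehicle library. On median-scaled coverage the log2 fold change was 0.76 (limma, adjusted p = 0.124; blocked, 0.0148), and on assembled loci it was 0.68 (adjusted p = 0.269; blocked, 0.0333). Coverage per gigabase and FPKM of Cd200 stood in a ratio of 0.445 in vehicle library 1, of 0.679 and 0.822 in the other vehicle libraries, and of 0.528 to 0.753 in the agonist libraries. The ratio was 1 in every library for Nrp1, Klrg1, Cd83 and Cd5. All 3 measures come from the same reads, so they are no independent evidence. The fits on assembled loci, and that on coverage with the block, were added after the data were seen.

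**Figure D3:**
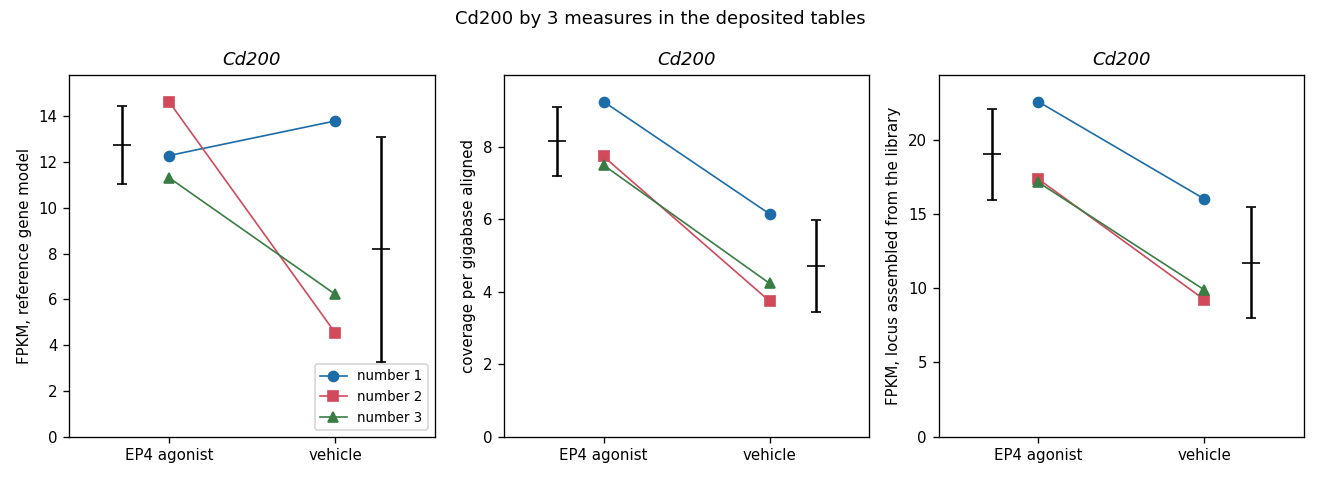
Cd200 in the 3 EP4 agonist and the 3 vehicle libraries by FPKM of the reference gene model (left), coverage per gigabase of aligned sequence (middle) and FPKM of the locus assembled from each library's reads (right). Lines join libraries with the same replicate number, and black marks give the mean and SD (n = 3). Vehicle library 1 lies among the agonist libraries in the left panel, and below all of them in the other panels.

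With coverage in place of FPKM and the block, 5 of the 7 genes rose, namely Gpr83, Izumo1r, Klrg1, Cd83 and Cd200, where 7.45% of all tested genes did. With assembled loci and the block 2 of the 7 rose, Gpr83 and Cd200, where 2.94% of the 12020 genes with such a locus in every library did. Both fits were added after the data were seen. The 7 genes were chosen with earlier results of these data known, so an excess over all tested genes may be built in. For Izumo1r the measures differed in level. Its coverage per gigabase was 49.8, 44.3 and 46.8 with the agonist, against 42.6, 33.0 and 33.3 with vehicle, which is 0.175 to 0.193 times its FPKM. The groups were apart here too, and the ratio of the means was 1.29. For Gpr83, coverage per gigabase was 85.8, 70.5 and 86.6 with the agonist, against 60.8, 45.2 and 48.9 with vehicle, a ratio of the means of 1.57.

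By FPKM, which is a level per length, the order of the 7 genes with the agonist was Izumo1r, Cd5, Gpr83, Cd200, Nrp1, Klrg1 and Cd83. With vehicle the order was Izumo1r, Cd5, Gpr83, Nrp1, Cd200, Klrg1 and Cd83. With the agonist, neighbours in this order were apart in their ranges down to Cd200 and Nrp1, and the ranges of Nrp1, Klrg1 and Cd83 overlapped. With vehicle, Cd5, Gpr83 and Nrp1 were apart from each other, while Izumo1r overlapped Cd5, and Nrp1, Cd200, Klrg1 and Cd83 overlapped each with the next. By coverage per gigabase Cd5 led in both groups, followed by Gpr83 and Izumo1r, so the place of Izumo1r depends on the measure. Averaged over the 6 libraries, the FPKM of Izumo1r, Cd5 and Gpr83 exceeded that of 98.0, 97.0 and 93.8% of tested genes. The other four genes exceeded 51.1% (Cd200), 46.0% (Nrp1), 39.5% (Klrg1) and 37.1% (Cd83).

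Within pairs of the same number, Gpr83, Izumo1r, Klrg1 and Cd83 were higher with the agonist in 3 of 3 pairs, where 20.7% of all tested genes were. Nrp1 and Cd5 were lower in 3 of 3 pairs, where 31.6% of all tested genes were. Cd200 was higher in 2 of 3 pairs by FPKM and in 3 of 3 by coverage.

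The profiles of the 7 genes over the 6 libraries differed in shape. As a measure of likeness, the root mean square difference between gene-centred log2(FPKM + 1) values was taken over the 6 libraries, and it is a description with no test. Nrp1 and Cd5, both nearly flat, were closest to each other (0.10), followed by Gpr83 and Izumo1r (0.16), and Klrg1 and Cd83 were farthest apart (1.09). The root mean square of the profile itself was 0.12 for Nrp1, 0.08 for Cd5, 0.37 for Gpr83 and 0.23 for Izumo1r. Each of these had nearer profiles outside the 7 genes. Among 8540 tested genes with a mean of at least 5 FPKM, the nearest to Cd83 were Nr4a1 (0.15), Tnfsf8 (0.23) and Gm8369 (0.25), against 0.69 for the root mean square of the Cd83 profile itself. Nr4a1, an early response gene of antigen receptor signalling, had 19.9, 8.25 and 9.24 FPKM in agonist libraries 1, 2 and 3, against 16.9, 6.57 and 5.03 FPKM in vehicle libraries 1, 2 and 3. Like Cd83 it was high in number 1 of both groups. The nearest to Klrg1 were Gbp2b (0.17), Mt2 (0.18) and Lif (0.18), against 0.47 for the Klrg1 profile. Gbp2b, an interferon-induced guanylate-binding protein, had 6.09, 13.5 and 13.4 FPKM with the agonist, against 5.77, 12.0 and 12.5 FPKM with vehicle, and was low in number 1 of both groups. The nearest to Gpr83 were Dennd4a, Jak2 and Camk4 (0.04 to 0.07, against 0.37), to Izumo1r Pxmp4, Fbxo4 and Stat5b (0.03 to 0.05, against 0.23), and to Cd200 Arl8a, Gm27694 and Ppp1r16b (0.20 to 0.24, against 0.56). The nearest to Nrp1 were Stk10, Msn and Mplkip, the last at 0.0336, and Psmd4 (0.0242) and Tpd52l2 (0.0249) were among the 3 nearest to Cd5.

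**Figure D4:**
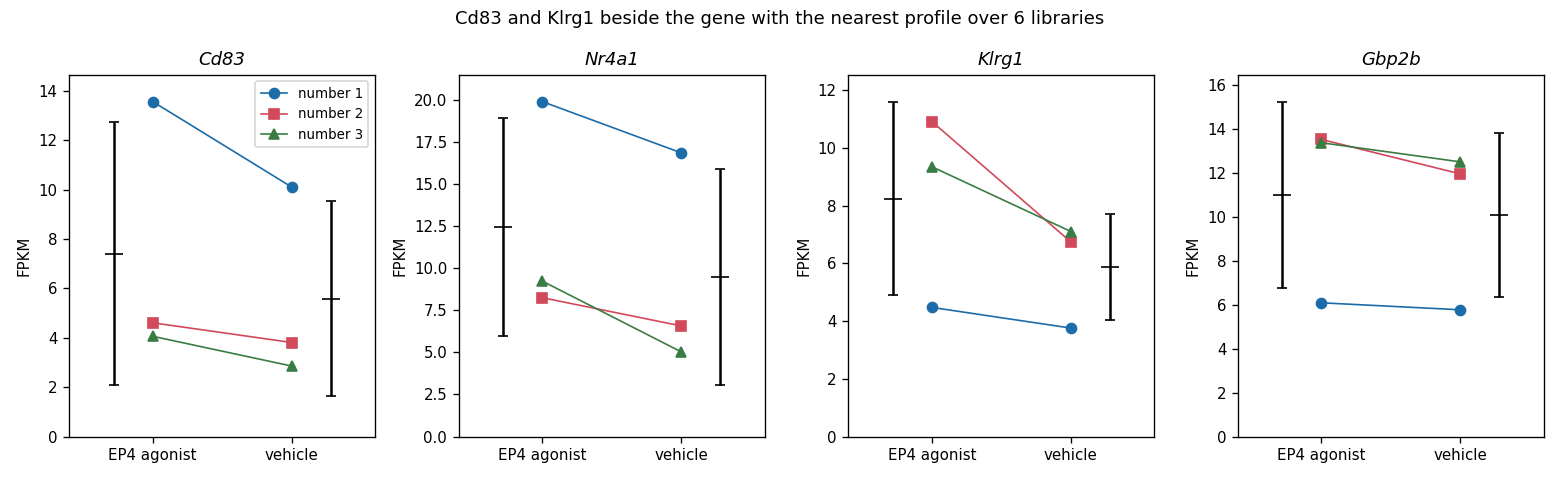
FPKM of Cd83 and Klrg1 in the 3 EP4 agonist and the 3 vehicle libraries, each beside the tested gene whose profile was nearest, Nr4a1 and Gbp2b. Lines join libraries with the same replicate number, and black marks give the mean and SD (n = 3). Number 1 is the high library of both groups for Cd83 and Nr4a1 and the low library of both groups for Klrg1 and Gbp2b.

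Most of the genes whose products bind or act with the 7 did not pass the test or were hardly present. Of 23 listed partners 14 were tested, 0 passed without the block, and with it Cblb rose and Ptpn6 fell. These 2 of 14 are near the 10.5% of all tested genes that passed with the block, so the count is no result about the partners. Their median log2 fold change was -0.03, the same as over all tested genes. Cblb, a ubiquitin ligase that restrains T cell activation, had 17.3 ± 3.35 FPKM with the agonist and 12.0 ± 2.66 FPKM with vehicle (limma, adjusted p = 0.294; blocked, 0.0175). Ptpn6, which encodes the phosphatase SHP-1 that acts below inhibitory receptors, had 57.0 ± 0.554 FPKM with the agonist and 78.2 ± 7.57 FPKM with vehicle (limma, adjusted p = 0.118; blocked, 0.0266). Sema4a, a semaphorin that binds Nrp1, had 7.37 ± 0.988 FPKM with the agonist and 10.2 ± 2.29 FPKM with vehicle (limma, adjusted p = 0.352; blocked, 0.0518). Cd200r1, the receptor of Cd200, had 19.0 ± 2.52 FPKM with the agonist and 18.6 ± 1.47 FPKM with vehicle. Cd6, a receptor related to Cd5, had 105 ± 10.9 FPKM with the agonist and 111 ± 9.01 FPKM with vehicle. Inpp5d, which encodes the phosphatase SHIP-1 recruited by Klrg1, had 42.4 ± 2.47 FPKM with the agonist and 38.6 ± 1.36 FPKM with vehicle. Cd72, named as a ligand of Cd5, had 2.51 ± 0.392 FPKM with the agonist and 2.57 ± 0.198 FPKM with vehicle. Cdh1, the cadherin bound by Klrg1, reached 0.127 FPKM at most, and Plxna4 was listed at 0 in every library.

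Other genes of the same Treg states moved in part. The lists were chosen with earlier results of these data known, so an excess over all tested genes may be built in. Of 19 thymic Treg genes other than the 7, 18 were tested and 0 passed without the block, and with it 7 rose and 2 fell, with a median log2 fold change of 0.18. Over all tested genes, 4.09% rose and 10.5% passed in either direction with the block. The 2 thymic Treg genes that fell with the block were Itgae and Socs2. Itgb8, an integrin chain that activates TGF-beta, had 4.68 ± 1.50 FPKM with the agonist and 2.29 ± 0.990 FPKM with vehicle (limma, adjusted p = 0.245; blocked, 0.0166). Swap70, a regulator of the actin cytoskeleton, had 32.9 ± 6.05 FPKM with the agonist and 20.9 ± 4.40 FPKM with vehicle (limma, adjusted p = 0.190; blocked, 0.0166). Tnfrsf18, which encodes the co-stimulatory receptor GITR, had 737 ± 68.4 FPKM with the agonist and 479 ± 139 FPKM with vehicle (blocked adjusted p = 0.0338, limma). Tnfrsf4, which encodes the co-stimulatory receptor OX40, had 527 ± 45.0 FPKM with the agonist and 354 ± 54.6 FPKM with vehicle (blocked adjusted p = 0.0187, limma). Of 24 effector Treg genes, 23 were tested, 2 rose and 0 fell without the block, and 12 rose and 3 fell with it, beside the same 4.09% and 10.5% of all tested genes, with a median log2 fold change of 0.39. The 2 were Tnfrsf9 and Pdcd1. Tnfrsf9, the gene of the activation-induced TNF receptor 4-1BB, had 468 ± 25.7 FPKM with the agonist and 146 ± 58.1 FPKM with vehicle (limma, adjusted p = 0.0409). Pdcd1, the gene of the checkpoint receptor PD-1, had 53.1 ± 4.97 FPKM with the agonist and 16.3 ± 3.65 FPKM with vehicle (limma, adjusted p = 0.0154). Both calls held without vehicle library 1 and were lost without any other single library, where the adjusted p was 0.131 to 0.186 for Tnfrsf9 and 0.0503 to 0.0951 for Pdcd1. With no filter on low FPKM it was 0.230 for Tnfrsf9 and 0.119 for Pdcd1, and for Tnfrsf9 it was 0.0517 with no trend and 0.0609 on assembled loci. Among the 12 that rose with the block, the chemokine receptor gene Ccr8 had 27.6 ± 4.38 FPKM with the agonist and 15.6 ± 5.77 FPKM with vehicle. The granzyme gene Gzmb, also among them, had 173 ± 77.7 FPKM with the agonist and 108 ± 53.7 FPKM with vehicle (limma, adjusted p = 0.574, and 0.0199 with the block). Number 1 was its low library in both groups, at 84.8 FPKM with the agonist and 53.7 FPKM with vehicle. In numbers 2 and 3 it had 231 and 203 FPKM with the agonist, and 161 and 110 FPKM with vehicle. The 3 that fell with the block were Irf4, Batf and Itgae.

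Genes of resting Tregs had a median log2 fold change of -0.01. All 10 were tested, 0 passed without the block, and with it Il7r rose and Tcf7 fell, which is 2 of 10 beside 10.5% of all tested genes. Il7r, the interleukin-7 receptor chain gene, had 14.3 ± 0.770 FPKM with the agonist and 9.56 ± 0.723 FPKM with vehicle. Tcf7, which encodes the transcription factor TCF-1, had 48.3 ± 16.0 FPKM with the agonist and 57.2 ± 16.8 FPKM with vehicle, and its blocked adjusted p was 0.0413, or 0.0844 with quantile normalization as well. Of 14 T cell receptor response genes 13 were tested, with a median log2 fold change of -0.12. Tnfrsf9, which this list shares, rose without the block, and with it 4 rose and 1 fell, beside the same shares of all tested genes. Nr4a3, an orphan nuclear receptor induced early after antigen receptor signalling, had 12.3 ± 0.878 FPKM with the agonist and 4.47 ± 2.85 FPKM with vehicle (limma, adjusted p = 0.158; blocked, 0.0404). Nr4a2 of the same family had 3.30 ± 0.925 FPKM with the agonist and 1.72 ± 0.797 FPKM with vehicle (limma, adjusted p = 0.283; blocked, 0.0255). The transcription factor gene Irf4 fell with the block, with 22.1 ± 1.31 FPKM with the agonist and 33.3 ± 5.80 FPKM with vehicle.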

How the data were processed

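RNA sequencing of 6 libraries was used, 3 from nTregs treated with the EP4 agonist and 3 with vehicle, grouped by title. Per the submitters' processing notes, Trim Galore, HISAT2 and the mm10 build were used. Not given in the sources used here are their versions, the abundance program, its annotation release and its strand setting. The authors deposited 1 table per library with FPKM, coverage (a signal per base) and TPM, per the file headers. Each table holds 47643 reference genes and 19801 to 20833 loci assembled from its own reads. The deposited TPM column mixes both kinds of rows and was not used. Identifiers listed more than once were summed. Fragment counts could not be recovered, so the stated precision is the spread between libraries. The ratio of coverage to FPKM shared by about 35% of features gave the gigabases aligned.

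FPKM was analysed as log2(FPKM + 1) for 12186 genes with at least 1 FPKM in 3 or more libraries. This understates the fold change of low genes. Agonist and vehicle were compared by the moderated test of limma 3.58.1 (trend and robust, with statmod 1.5.0; R 4.3.3). P-values were adjusted by Benjamini and Hochberg over all tested genes, with a threshold of 0.05, to which "rose" and "fell" refer. Python 3.11.15 was used with pandas 2.3.3, numpy 2.4.6 and matplotlib 3.10.9. The fit was tested on simulated data. The design file allowed for counts and named limma for FPKM. Protein sequences were not used here.

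Replicate numbers were taken to pair the libraries. Deviations from group means correlated at 0.51, 0.40 and 0.32 in same-numbered pairs and at -0.35 to 0.002 in the other pairs. Such deviations cancel out within each group, so positive values in same-numbered pairs force lower ones in the others. The other pairs are thus no separate evidence of pairing. The labels do not say what the number stands for, and a block chosen from these libraries favours small p-values. The fit without the block is the main one.

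The 7 genes and the lists were chosen from general knowledge with earlier results of these data known. Named genes are the 7, up to 4 called genes per list with the largest change, 7 direct partners, and the 3 nearest profiles per gene. The thymic and effector Treg genes that fell with the block, and single markers, are named as well. A marker and a nearest profile are not reported here. Normalization, pseudocount, filter, unit, variance model, block and left-out libraries were varied. The fits on assembled loci, and on coverage with the block, were added after the data were seen.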

Additional observations from a re-analysis of the deposited data

How the results depend on the processing

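The direction of the log2 fold change (agonist over vehicle) was the same as reported in 165 of 166 comparisons of the 7 genes with an alternative, the exception being Cd83 without agonist replicate 1 (-0.15). Part of this count was fixed in advance. The filters, the variance model and the block over all 6 libraries change the p-value and leave the estimate as it was. Leaving out 1 library at a time, with no block, gave 0.60 to 0.81 for Gpr83, -0.15 to 0.79 for Cd83, 0.40 to 1.11 for Cd200, 0.29 to 0.49 for Izumo1r and 0.15 to 0.73 for Klrg1. Without vehicle replicate 1, Gpr83 and Cd200 passed the threshold. With no block and all 6 libraries, 0 of the 7 passed under any alternative. With the replicate block, taken because same-numbered libraries deviate together, the values past the threshold were 0.69 for Gpr83, 0.38 for Izumo1r and 0.34 for Cd83, with quantile normalization as well 0.76 for Gpr83 and 0.42 for Izumo1r, and without replicate 1 0.78 for Gpr83 and 0.48 for Izumo1r. Blocked coverage gave 0.67 for Gpr83, 0.40 for Izumo1r, 0.43 for Klrg1, 0.38 for Cd83 and 0.76 for Cd200, and blocked assembled loci 0.65 for Gpr83 and 0.68 for Cd200. Nrp1 and Cd5 passed under none of their alternatives.

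The count of genes called was 48 (42 higher, 6 lower). It was 75 with upper quartile scaling, 2 with no filter on low FPKM, 104 with coverage, and 0 to 133 when 1 library was left out (0 without vehicle replicate 2 or 3 or agonist replicate 2, with 1033, 1115 and 1606 genes at an unadjusted p under 0.05; 4 and 5 without agonist replicates 1 and 3). With the block it was 1279 (498 higher, 781 lower), 997 with quantile normalization as well (519 higher, 478 lower), 1951 with coverage and 824 with assembled loci, and 241, 0 and 1 without replicates 1, 2 and 3. The cause of these differences was not tested. Among the other named genes, Cd200r1 (0.02 as reported) changed sign without vehicle replicate 2 or agonist replicate 1 (range over left-out libraries -0.0704 to 0.111), with the block and without replicate 1 (-0.0333) and on assembled loci with or without the block (-0.0294). Cd72 (-0.03 as reported) changed sign with upper quartile scaling (0.0034), without vehicle replicate 3 or agonist replicate 2 (range -0.0756 to 0.0699) and, blocked, without replicate 2 (0.0342). Fragment counts are unknown, so no limit from depth is given.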
